A study of Mus musculus with 6 samples.

Results

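The 36 genes described here encode the machinery of cholesterol and fatty acid synthesis that the sterol regulatory element-binding proteins (SREBPs) govern, and they were chosen by name from 30281 gene symbols. They comprise 5 regulators of the pathway, 18 genes of the sterol branch and 13 genes of the fatty acid branch, and all 36 were found in the table. SREBPs are transcription factors made as inactive membrane proteins of the endoplasmic reticulum. When sterols are scarce, SCAP escorts them to the Golgi for cleavage, and when sterols are plentiful, INSIG proteins hold SCAP back. The cleaved factors enter the nucleus and turn on genes of lipid synthesis, SREBP2 mainly those of sterols and SREBP1 mainly those of fatty acids. The kinase complex mTORC1 is known to promote SREBP activity. TSC2 restrains mTORC1 and rapamycin inhibits it.

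The levels were read from 6 mouse RNA-Seq libraries, 1 for each condition. There were 2 libraries of mouse embryonic fibroblasts (MEFs) that were both labelled p53-/- and otherwise *Tsc2*+/+ or *Tsc2*-/-, and neither was treated. The other 4 came from 2 lines of kidney epithelial cells labelled Tsc2-null, MKOC and TJ, each untreated or given 100 nM rapamycin for 18 hr. TJ is labelled as tumor-derived, from a secondary tumor in C57BL6 mice, and no age or strain is given for the other cells. The protocol has the cells in serum-free DMEM with 0.1% BSA and names diluent as the control, but it does not say whether the MEFs were handled this way. The study's methods name DMEM with fetal bovine serum as the medium in which its cells, MEFs included, were kept. None of the 6 libraries is from kidney cells labelled as expressing *Tsc2*, so each change with rapamycin is one among cells labelled Tsc2-null. Nothing in the labels says how many cultures a library pooled.

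Libraries held between 22887020 and 37505004 estimated counts. *Tsc2* itself had 22.6 TPM (a level scaled to transcript length and library size) in the *Tsc2*+/+ MEFs and 10.5 TPM in the library labelled *Tsc2*-/-. In the kidney libraries, labelled Tsc2-null, its level was 49.1 (untreated) and 19.5 TPM (rapamycin) for MKOC, and 44.0 and 19.1 TPM for TJ. *Tsc2* RNA was therefore present in all 5 libraries labelled as lacking the gene, and TPM values do not show which exons the reads covered. *Trp53*, the gene of p53, had 26.3 and 28.5 TPM in the 2 MEF libraries. Of 7 kidney epithelial markers, 6 reached 1 TPM in all 4 kidney libraries, and *Epcam* stayed close to 0. Of 7 fibroblast markers, 6 reached 1 TPM in the *Tsc2*+/+ MEFs, where *Thy1* was at 0, and 7 did in the library labelled *Tsc2*-/-. That library also had 4 of 4 mesothelial markers, summing to 368 TPM against 2.64 TPM in the *Tsc2*+/+ MEFs.

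Since the members are defined by a shared class of transcription factor, the stretch of 250 bases before the start site of 5 of them is shown, from RefSeq on GRCm38.p6. *Hmgcs1* is shown because it held the only match to a sterol element, *Insig1*, *Mvd* and *Mvk* because they rose with rapamycin, and *Lpin1* because it rose most of all. Capitals mark exact matches on either strand to the sterol regulatory element TCACNCCAC, the E-box CACGTG, the CCAAT box and the GC box GGGCGG. The motifs and the genes shown were chosen after values were seen.

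Hmgcs1 (chr13:119690101-119690350, plus strand): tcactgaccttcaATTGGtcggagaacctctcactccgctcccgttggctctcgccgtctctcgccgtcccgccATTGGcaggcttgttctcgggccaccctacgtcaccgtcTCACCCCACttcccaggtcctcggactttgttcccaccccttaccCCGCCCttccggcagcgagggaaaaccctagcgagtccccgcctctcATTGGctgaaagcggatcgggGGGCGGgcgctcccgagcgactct
Insig1 (chr5:28071162-28071411, plus strand): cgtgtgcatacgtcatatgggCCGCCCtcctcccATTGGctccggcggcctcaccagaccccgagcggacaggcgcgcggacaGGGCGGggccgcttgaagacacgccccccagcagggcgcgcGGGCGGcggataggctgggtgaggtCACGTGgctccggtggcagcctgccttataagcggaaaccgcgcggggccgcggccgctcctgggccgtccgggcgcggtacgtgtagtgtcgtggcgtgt
Mvd (chr8:122443423-122443672, minus strand): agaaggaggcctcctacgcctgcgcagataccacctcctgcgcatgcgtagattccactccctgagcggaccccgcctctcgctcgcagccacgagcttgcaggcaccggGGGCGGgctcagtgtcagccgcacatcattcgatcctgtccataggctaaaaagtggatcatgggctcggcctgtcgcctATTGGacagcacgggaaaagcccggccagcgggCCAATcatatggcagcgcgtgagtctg
Mvk (chr5:114444019-114444268, plus strand): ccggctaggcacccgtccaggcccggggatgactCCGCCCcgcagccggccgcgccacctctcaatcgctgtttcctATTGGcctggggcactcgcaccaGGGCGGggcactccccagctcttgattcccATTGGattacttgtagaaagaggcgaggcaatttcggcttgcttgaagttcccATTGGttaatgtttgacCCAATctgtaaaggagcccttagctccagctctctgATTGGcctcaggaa
Lpin1 (chr12:16610967-16611216, minus strand): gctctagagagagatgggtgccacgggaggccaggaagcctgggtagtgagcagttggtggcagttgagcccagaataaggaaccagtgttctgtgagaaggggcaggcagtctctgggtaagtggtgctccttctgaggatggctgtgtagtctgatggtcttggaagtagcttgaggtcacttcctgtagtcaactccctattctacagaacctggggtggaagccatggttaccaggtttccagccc

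The RefSeq promoter table matched 29 of the 36 members, including 14 sterol and 10 fatty acid genes, in windows of 300 bases that run 250 bases before to 50 bases after the start. The sterol element as spelled above was found in 1 member, *Hmgcs1*, where it starts 137 bases before the start site, and in 1.44% of the 27025 genes of the table. The E-box was present in 6 members (*Scap*, *Insig1*, *Hsd17b7*, *Sc5d*, *Dhcr7* and *Elovl5*) and in 8.09% of all genes. The CCAAT box was present in 23 members, against 41.1% of all genes. They were 13 of 14 sterol genes, 6 of 10 fatty acid genes and the regulators *Srebf1*, *Srebf2*, *Insig1* and *Insig2*. The GC box was also present in 23 members, against 38.2% of all genes. They were 13 of 14 sterol genes, 5 of 10 fatty acid genes and all regulators. These shares are over every gene of the promoter table, expressed here or not. Whether the members differ from other expressed genes was not tested. A CCAAT box is the known binding site of NF-Y and a GC box that of Sp1, factors known to work together with SREBPs. In the stretches printed, *Mvk* has 5 CCAAT boxes and 2 GC boxes and *Lpin1* has none of the 4 motifs. The *Lpin1* window lies at the upstream of its 2 listed starts, which gave 8.7% to 16.6% of its counts in the kidney libraries. A window at the downstream start, the main one in those libraries, was not analysed here. A match is a description of the letters and not a measured binding site.

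In every library the most abundant sterol gene was *Fdps*, farnesyl diphosphate synthase, and the most abundant fatty acid gene was *Scd2*, a stearoyl-CoA desaturase. The level of *Fdps* was 195 TPM in the *Tsc2*+/+ MEFs, 258 TPM in the *Tsc2*-/- MEFs and 637 to 759 TPM in the 4 kidney libraries. *Scd2* had 148 and 408 TPM in the MEFs and 706 to 1086 TPM in the kidney libraries, and *Scd1*, its neighbour on chromosome 19, had 88.7 and 125 TPM against 397 to 605 TPM. The 2 desaturases together made up 28.1% and 36.5% of the summed TPM of the fatty acid branch in the MEFs, and 66.5% to 72.1% in the kidney libraries. The plot of levels shows all members. All 4 kidney libraries were above both MEF libraries for 18 of the 36 members, and this was so for 26.8% of the 13913 symbols of at least 1 TPM in any library. They were 12 sterol genes, the regulators *Srebf1*, *Srebf2* and *Insig1*, and *Acss2*, *Scd1* and *Scd2*. All 4 kidney libraries were below both MEF libraries for 3 members, *Scap*, *Me1* and *Fads2*, against 21.4% of all symbols. Some margins were very small. *Me1* had 109.3 TPM in untreated MKOC cells and 110.2 TPM in the *Tsc2*+/+ MEFs. *Cyp51*, counted as above both MEF libraries, had 127.2 and 127.0 TPM in the same 2 libraries. The libraries differ in cell type, genotype and possibly medium at once, and these cannot be told apart.

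**Figure D1:**
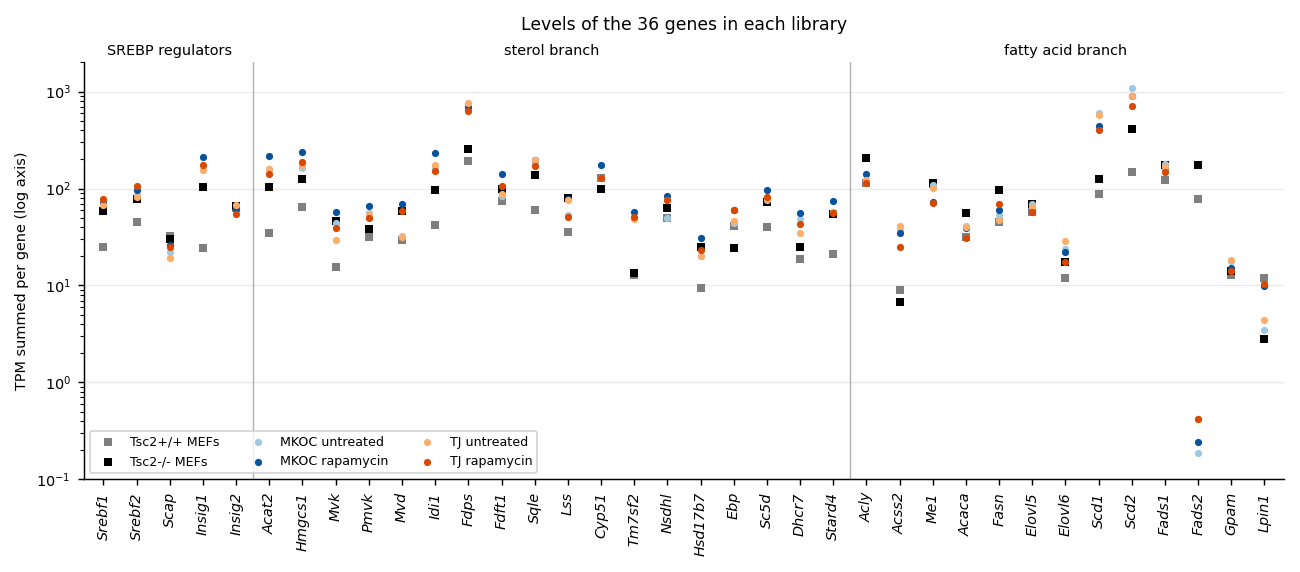
Level of each of the 36 genes in each of the 6 libraries, as TPM summed over its transcripts on a log axis, grouped into regulators, sterol branch and fatty acid branch. Each point is 1 library; *Fdps*, *Scd1* and *Scd2* stand highest in the kidney libraries, and *Fads2* lies below 1 TPM there and at 78.8 and 174 TPM in the MEFs.

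*Fads2*, the delta-6 desaturase that starts the synthesis of long polyunsaturated fatty acids, set the cell types furthest apart. It had 78.8 TPM in the *Tsc2*+/+ MEFs and 174 TPM in the *Tsc2*-/- MEFs, but 0.188 and 0.242 TPM in untreated and rapamycin-treated MKOC cells and 0.418 and 0.416 TPM in TJ cells. Behind these levels stood 3265 and 3566 estimated counts in the MEFs and between 5 and 10 in each kidney library. The ratio of a MEF to a kidney library ranged from 189 (exact binomial 95% interval 102 to 394, which covers counting error only) to 925 (396 to 2851). *Fads1*, the delta-5 desaturase next to it on chromosome 19, differed little between the cell types, with 123 and 173 TPM in the MEFs and 149 to 177 TPM in the kidney libraries. *Fads3*, which is no member but shares 0.769% of the 31-base stretches of *Fads2*, had 178 to 324 TPM in the kidney libraries. Counts of *Fads2* in the kidney lines were too low for the rapamycin test, so 35 of the 36 members entered it.

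The balance of the branches can be read from their summed levels. The 18 sterol genes summed to 900 TPM in the *Tsc2*+/+ MEFs and 1419 TPM in the *Tsc2*-/- MEFs, and the 13 fatty acid genes to 842 and 1461 TPM, so the sterol sum was 1.07 and 0.972 times the fatty acid sum. In MKOC cells the sterol sum was 2075 TPM untreated and 2613 TPM with rapamycin, while the fatty acid sum was 2344 and 1955 TPM. In TJ cells the sterol sum was 2228 and 2116 TPM and the fatty acid sum 2111 and 1661 TPM. The ratio of sterol to fatty acid sum was thus 0.885 and 1.34 in MKOC cells and 1.06 and 1.27 in TJ cells, higher with rapamycin in each line. In MKOC cells the sterol sum was higher and the fatty acid sum lower with rapamycin, and in TJ cells both sums were lower. With *Scd1* and *Scd2* left out, the ratio was 3.17 and 4.24 in MKOC cells and 3.50 and 3.799 in TJ cells. Each value is 1 library, and no test was run on these sums.

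**Figure D2:**
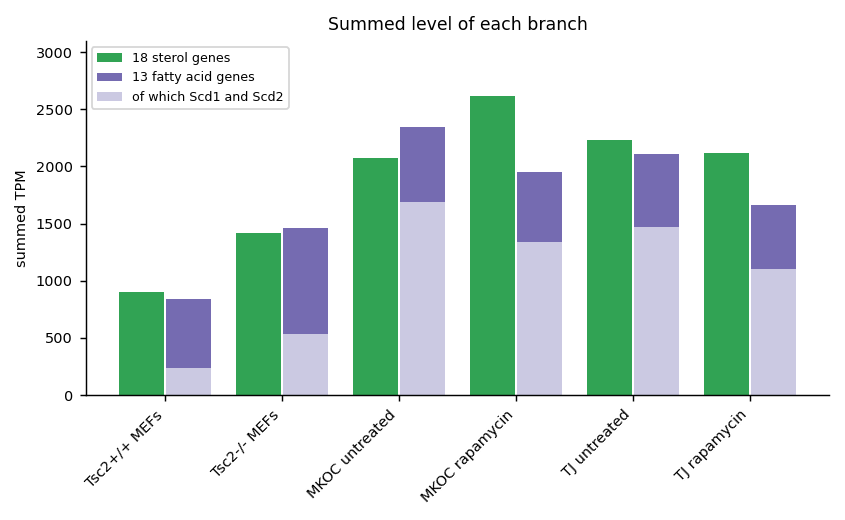
Summed TPM of the 18 sterol genes (green bars) and the 13 fatty acid genes (purple bars, the pale part being *Scd1* and *Scd2*) in each of the 6 libraries. Each bar is 1 library, so there are no error bars; the sterol sum in MKOC cells is 2075 TPM untreated and 2613 TPM with rapamycin, and the fatty acid sum is lower with rapamycin in both lines.

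The comparison of rapamycin-treated with untreated kidney cells asked how the pathway behaves when mTORC1 is inhibited in cells labelled as lacking *Tsc2*. In the sterol branch *Mvd*, *Fdft1* and *Mvk* rose and none of 18 fell, while in the fatty acid branch *Me1*, *Scd1*, *Acss2* and *Elovl6* fell and only *Lpin1* rose among the 12 tested. Among the 5 regulators *Insig1* rose and none fell. In all, 5 members rose and 4 fell, so 9 of 35 were called. Over all 12952 symbols tested, 34.9% were called, 17.5% higher and 17.4% lower. The share of members called was thus no larger than that of all symbols. The 3 of 18 sterol genes that rose are near the background of symbols called higher, and the difference between the branches was not tested. At an unadjusted p under 0.05 stood 3 regulators, 5 sterol genes and 8 fatty acid genes, 16 of the 35 members, beside 45.4% of all symbols. No sterol gene or regulator was called lower by any of the tools or settings run. The test was the quasi-likelihood test of edgeR, fitted with a term for the line, and p-values were adjusted over all symbols after Benjamini and Hochberg with a threshold of 0.05.

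The test rests on 2 lines with 1 library per treatment in each. With a term for the line, the error left is how far the change with rapamycin differs between the 2 lines. The test pulls this error toward a trend over all symbols. Its p-values therefore do not measure the spread of a single gene between the lines, and no further replicates stand behind them. Without 1 library the fits also had no term for the line, and the 3 calls in the sterol branch then came to 0 without either untreated library and to 1 without either rapamycin library, while the 4 falls in the fatty acid branch came to 0 whichever library was left out. Without the line as covariate but with all 4 libraries, 1 sterol gene and 1 fatty acid gene rose, 1 fatty acid gene fell and no regulator was called. These were *Mvd* (adjusted p = 0.0247), *Lpin1* and *Me1* (adjusted p = 0.0383), in this order. Over the 10 other settings run, the log2 change of *Me1* ran from -0.63 to -0.49 and that of *Mvd* from 0.84 to 1.13. A fit without 1 library has a single library in 1 treatment group, so a call lost or kept there says little about a gene.

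**Figure D3:**
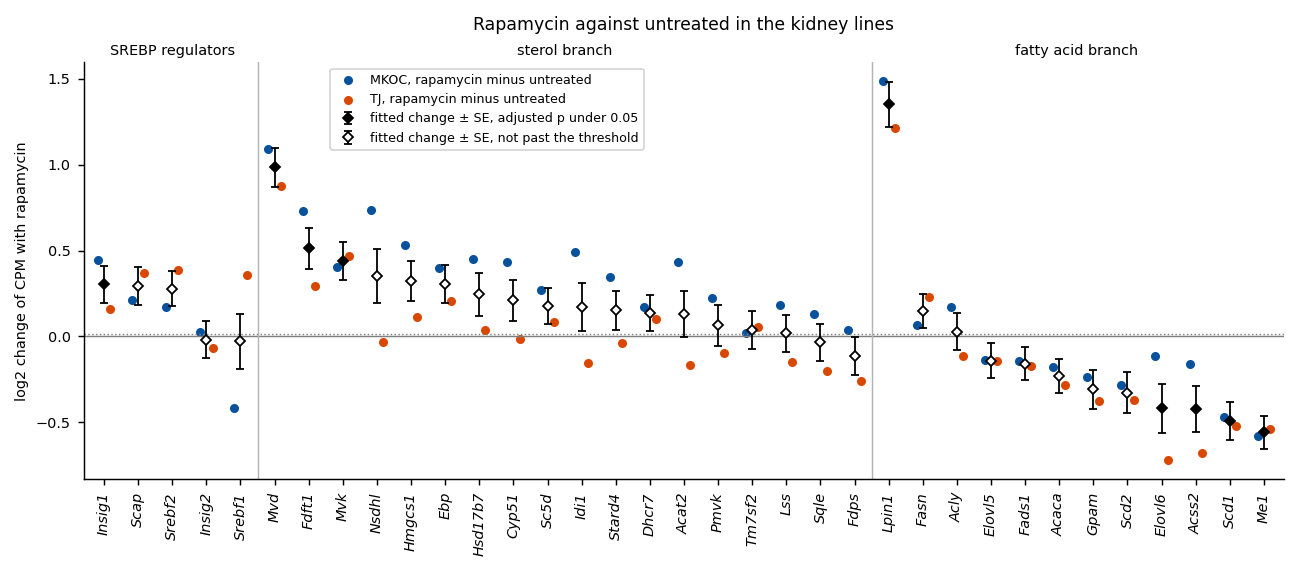
Log2 change of CPM (counts scaled to library size) with rapamycin for the 35 members tested, as the change in MKOC cells (blue), in TJ cells (orange) and the fitted change of both with its SE (diamonds, filled where the adjusted p is under 0.05). Sterol genes all lie above 0 in MKOC cells and on both sides of 0 in TJ cells, fatty acid genes other than *Lpin1*, *Fasn* and *Acly* lie below 0 in both lines, and *Mvd* and *Lpin1* stand highest.

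Among the regulators, *Insig1*, which retains SCAP and is itself a known SREBP target, had 155 TPM untreated and 212 TPM with rapamycin in MKOC cells, and 155 and 174 TPM in TJ cells. Both treated libraries were above both untreated libraries, and the fitted log2 change was 0.30 (SE 0.11, adjusted p = 0.0476), close to the threshold. The call was lost with RLE scaling (adjusted p = 0.0519), DESeq2 (0.108) and limma (0.0628). The log2 change was 0.15 without the rapamycin-treated MKOC library and 0.45 without the rapamycin-treated TJ library. *Srebf2*, which encodes SREBP2, had 85.8 and 97.3 TPM in MKOC and 81.0 and 106 TPM in TJ cells, with a log2 change of 0.28 (SE 0.10, adjusted p = 0.0555). *Scap* had 22.3 and 26.1 TPM in MKOC and 19.4 and 25.2 TPM in TJ cells, with a log2 change of 0.29 (SE 0.11, adjusted p = 0.0580). Neither passed the threshold, although the treated libraries were above the untreated ones for both genes. *Insig2*, the second retention protein, had 61.6 and 61.8 TPM in MKOC and 67.2 and 55.2 TPM in TJ cells, and its log2 change of -0.02 (SE 0.11, adjusted p = 0.914) did not pass. *Srebf1*, which encodes SREBP1, had 76.8 TPM untreated and 70.9 TPM with rapamycin in MKOC cells, and 67.8 and 77.5 TPM in TJ cells. The lines moved in opposite directions here, so that the fitted log2 change of -0.03 (SE 0.16, adjusted p = 0.916) averages unlike values.

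In the sterol branch the largest change was that of *Mvd*, mevalonate diphosphate decarboxylase, which makes isopentenyl diphosphate. *Mvd* had 32.7 TPM untreated and 70.0 TPM with rapamycin in MKOC cells, and 31.4 and 58.0 TPM in TJ cells. The groups were far apart and the fitted change was 1.98-fold (log2 0.99, SE 0.11, adjusted p = 0.000189). Without the untreated MKOC library its log2 change was 1.03 (adjusted p = 0.111) and without the untreated TJ library 0.95 (adjusted p = 0.132). *Fdft1*, squalene synthase, the first enzyme committed to sterols, had 84.4 and 141 TPM in MKOC and 86.9 and 107 TPM in TJ cells, a log2 change of 0.51 (SE 0.12, adjusted p = 0.00776). The call of *Fdft1* was lost with no term for the line (adjusted p = 0.0927) and whichever library was left out (adjusted p from 0.0512 to 0.302), with log2 changes from 0.30 without the rapamycin-treated MKOC library to 0.71 without the rapamycin-treated TJ library. *Mvk*, mevalonate kinase, had 43.9 and 57.5 TPM in MKOC and 29.5 and 39.0 TPM in TJ cells, a log2 change of 0.44 (SE 0.11, adjusted p = 0.0122). The rapamycin-treated TJ library was below the untreated MKOC library for *Mvk*, so its groups overlap and the call rests on the line as a covariate. With DESeq2 the adjusted p of *Mvk* was 0.0638. Its log2 change was 0.74 without the untreated and 0.15 without the treated MKOC library, and 0.17 without the untreated and 0.66 without the treated TJ library, and none of these passed. By role, 2 of 7 genes from acetoacetyl-CoA to farnesyl diphosphate rose (*Mvd* and *Mvk*), and 1 of 10 genes from squalene to cholesterol rose (*Fdft1*). Both counts are to be read beside the 17.5% of all symbols that were called higher. The cholesterol transport gene *Stard4* had a log2 change of 0.15 (SE 0.11, adjusted p = 0.320). The 15 sterol genes that did not pass had log2 changes from -0.11 (*Fdps*) to 0.35 (*Nsdhl*). *Hmgcs1*, the gene with the sterol element printed above, was among them with 165 and 240 TPM in MKOC and 175 and 190 TPM in TJ cells. Its log2 change was 0.32 (SE 0.12, adjusted p = 0.0552).

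Some members share sequence with other genes. Kallisto by default assigns reads by stretches of 31 bases, and 47.5% of those of *Fdft1* occur in other genes, mainly *Ctsb*, which overlaps it on the opposite strand. *Ctsb*, a lysosomal protease, fell with rapamycin (log2 change -0.52, SE 0.10, adjusted p = 0.00291) while *Fdft1* rose. Of the stretches of *Fdps*, 72.6% are shared, with *Gm3571*, *Gm5873* and *Gm8163*, and of those of *Acat2*, 44.2%, with *Acat3* and *Tcp1*. *Tcp1* had a log2 change of -0.50 (SE 0.10, adjusted p = 0.00467), *Acat3* stayed below 1.04 TPM and *Gm3571* below 0.304 TPM. *Scd1* and *Scd2* share 8.20% and 6.29% of their stretches with each other and with *Scd3* and *Scd4*. The shares were 18.8% for *Idi1* (with *Gm13502*, *Gm7654* and *Btnl9*), 15.3% for *Scap* (with *5830462I19Rik*), 13.8% for *Tm7sf2* (mainly with *Vps51*) and 7.06% for *Elovl6*. The part of shared reads in these levels was not tested, and *Mvd* shares none.

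The fatty acid genes that fell belong to the supply of precursors and to the modification of finished chains. *Me1*, the malic enzyme that supplies NADPH, had 109 TPM untreated and 72.1 TPM with rapamycin in MKOC cells, and 101.5 and 71.1 TPM in TJ cells. Its log2 change was -0.56 (SE 0.10, adjusted p = 0.00179), and the treated libraries lay well below the untreated ones. *Scd1*, which desaturates stearate to oleate, had 605 and 441 TPM in MKOC and 567 and 397 TPM in TJ cells, again with no overlap, and a log2 change of -0.49 (SE 0.11, adjusted p = 0.00706). *Acss2*, which makes acetyl-CoA from acetate, had 37.5 and 34.6 TPM in MKOC and 41.1 and 25.1 TPM in TJ cells (log2 change -0.42, SE 0.13, adjusted p = 0.0344). *Elovl6*, which elongates palmitate to stearate, had 23.6 and 21.96 TPM in MKOC and 28.5 and 17.4 TPM in TJ cells (log2 change -0.42, SE 0.14, adjusted p = 0.0416). For both of these genes most of the difference came from TJ cells, where the log2 changes of CPM were -0.68 and -0.72 against -0.16 and -0.12 in MKOC cells. Both calls were near the threshold and were lost with upper-quartile scaling (adjusted p = 0.0507 for *Acss2* and 0.0606 for *Elovl6*), DESeq2 (0.0576 and 0.0526) and limma (0.0787 and 0.0964). With 1 library left out, the log2 change of *Acss2* ran from -0.62 without the rapamycin-treated MKOC library to -0.23 without the rapamycin-treated TJ library, and that of *Elovl6* from -0.61 to -0.25 without the same libraries, and none passed.

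By role, 2 of 3 supply genes fell, neither of the 2 synthesis genes was called, and 2 of 5 tested elongation and desaturation genes fell. Of all symbols 17.4% were called lower, and with so few genes per role the differences between roles were not tested. The synthesis genes had opposite signs. *Acaca*, acetyl-CoA carboxylase, which commits carbon to fatty acids, had a log2 change of -0.23 (SE 0.10, adjusted p = 0.0928), and *Fasn*, fatty acid synthase, one of 0.15 (SE 0.10, adjusted p = 0.273). All 5 tested elongation and desaturation genes had negative changes in both lines, among them *Scd2*, with 1086 and 898 TPM in MKOC and 908 and 706 TPM in TJ cells and a log2 change of -0.33 (SE 0.12, adjusted p = 0.0580). Of the glycerolipid genes, *Gpam*, which adds the first acyl chain to glycerol phosphate, had a log2 change of -0.31 (SE 0.11, adjusted p = 0.0555).

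*Lpin1* was the exception in the fatty acid branch. It encodes lipin 1, a phosphatidate phosphatase that makes diacylglycerol and that is also known to act in the nucleus. *Lpin1* had 3.47 TPM untreated and 9.82 TPM with rapamycin in MKOC cells, and 4.43 and 10.3 TPM in TJ cells. This was the largest change of any member, 2.55-fold in the fit (log2 1.35, SE 0.13, adjusted p = 7.01e-05), and both lines showed it. Without the untreated MKOC library the log2 change was 1.18 (adjusted p = 0.0746) and without the untreated TJ library 1.52 (adjusted p = 0.0867). It was a low-level gene in every library, with at most 11.8 TPM.

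The 2 lines differed in how far the sterol branch moved. In MKOC cells, 18 of 18 sterol genes had a positive log2 change of CPM with rapamycin, with a median of 0.40. In TJ cells 9 were positive and 9 negative, with a median of 0.01. The change was higher in MKOC than in TJ cells for 16 of 18 sterol genes, against 53.4% of all symbols, and 9 sterol genes were higher with rapamycin in MKOC cells and lower in TJ cells, against 11.6% of all symbols. *Mvk* and *Tm7sf2* were the 2 sterol genes with the larger change in TJ cells. In the fatty acid branch the medians were -0.15 in MKOC and -0.33 in TJ cells, with 9 and 10 of the 12 tested genes negative. The median fitted change was 0.17 in the sterol branch, -0.27 in the fatty acid branch and 0.28 among the regulators, beside 0.02 for all symbols tested. With 1 library per line and treatment the difference between the lines could not be tested.

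The comparison of TJ with MKOC cells asked whether the tumor-derived line differed in these genes at either treatment. It was made in the same fit, where each line has 2 libraries. *Mvk* and *Dhcr7* were lower in TJ cells, and no other member passed the test. None was called higher in TJ cells. For *Mvk* the levels given above translate into a log2 difference of -0.54 (SE 0.11, adjusted p = 0.0158). *Dhcr7*, the last reductase of one route to cholesterol, had 48.7 and 55.3 TPM in untreated and treated MKOC cells and 34.7 and 42.7 TPM in TJ cells, a log2 difference of -0.49 (SE 0.11, adjusted p = 0.0189) with no overlap between the lines. Among all 12952 symbols 8.79% were called, 5.47% higher and 3.32% lower in TJ cells, so 2 of 35 is near the background. Of the members, 30 of 35 had a negative difference, and of all symbols 6720 of 12952 did. Both calls were lost without the treatment as covariate and when any 1 library was left out. There is 1 line of each kind, so the test compares these lines only.

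The MEF comparison asked how the pathway differs between embryonic fibroblasts labelled *Tsc2*-/- and *Tsc2*+/+. With 1 library of each there is no replicate check and no p-value. Changes are given as log2 of TPM with 1 added, a scale that understates the change of low genes, and 2-fold is used as the mark. At 2-fold or more, 12 of the 36 members were higher in the *Tsc2*-/- library and 1 was lower, beside 25.2% and 5.18% of the 12771 symbols of at least 1 TPM in either library. The members that were higher are 2 regulators (*Insig1* and *Srebf1*), 7 sterol genes and 3 fatty acid genes, and the lower one is *Lpin1*. The median log2 change was 0.79 for the regulators, 0.90 for the sterol branch and 0.49 for the fatty acid branch, and 0.45 for all symbols.

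Much of the shift is general to the 2 libraries. Over 7377 symbols of at least 10 TPM in both, the TPM of the *Tsc2*-/- library divided by that of the *Tsc2*+/+ library had a median of 1.31. In the *Tsc2*+/+ library 20.9% of all TPM came from transcripts under 300 bases, and 7.12% did so in the library labelled *Tsc2*-/-. After scaling to a median ratio of 1, *Insig1*, *Acat2*, *Mvk* and *Scd2* remained 2-fold higher, and *Lpin1* and *Ebp*, a sterol isomerase, were 2-fold lower, beside 15.8% and 8.21% of all symbols. The medians were then 0.40, 0.52 and 0.10 for regulators, sterol and fatty acid branch.

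**Figure D4:**
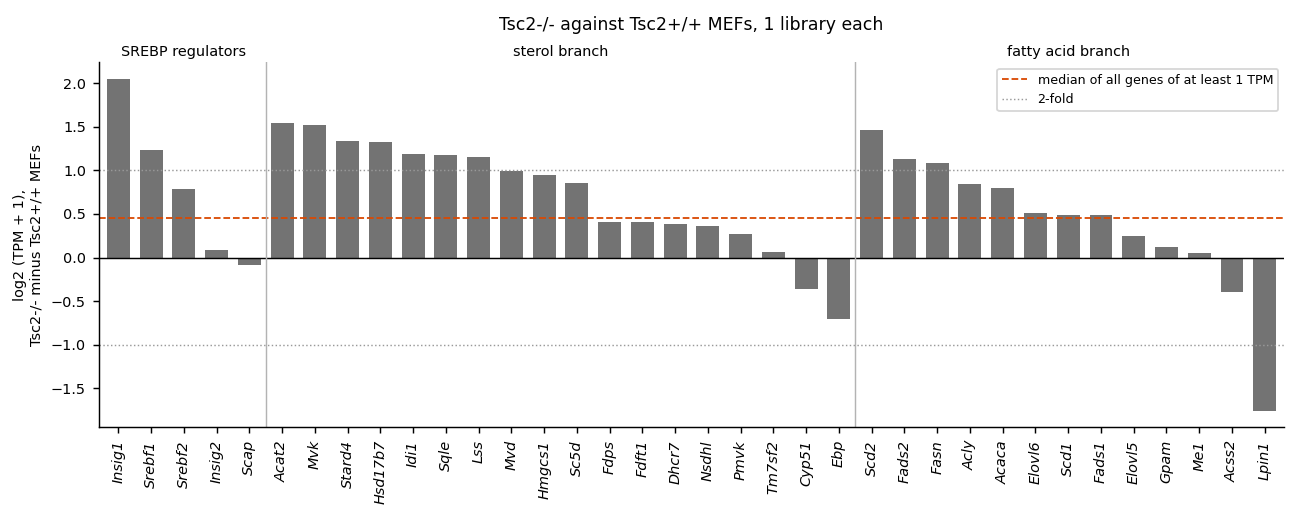
Log2 difference of TPM with 1 added between *Tsc2*-/- and *Tsc2*+/+ MEFs for the 36 members, 1 bar per gene, from 1 library each and so without error bars. Dotted lines mark 2-fold either way and the dashed red line the median of all symbols, 0.45; *Insig1* is highest at 2.05 and *Lpin1* lowest at -1.76.

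*Insig1* had 24.6 TPM in the *Tsc2*+/+ MEFs and 105 TPM in the *Tsc2*-/- MEFs, a ratio of 4.26 (exact binomial 95% interval 4.03 to 4.50, counting error only) and a log2 change of 2.05. The interval is that of the unscaled ratio and does not cover the general shift. After scaling to a median ratio of 1, the log2 change of *Insig1* was 1.66. *Srebf1* had 24.7 and 59.3 TPM (log2 change 1.23) and *Srebf2* 45.3 and 78.8 TPM (0.79). *Scap* with 32.2 and 30.3 TPM and *Insig2* with 62.9 and 66.7 TPM had the smallest unscaled differences among the regulators, -0.09 and 0.08. Both lay below the median of all symbols. After scaling to a median ratio of 1, *Scap* was at -0.46 and *Insig2* at -0.30, beside 0.40 for *Srebf2*.

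The sterol genes that differed most were at several steps. *Acat2*, which joins acetyl-CoA units at the start of the pathway, had 35.0 and 104 TPM (log2 change 1.54), and *Mvk* had 15.5 and 46.3 TPM (1.52). *Stard4*, which carries cholesterol between membranes, had 21.0 and 54.3 TPM (1.33), and *Hsd17b7*, a ketoreductase late in the pathway, had 9.44 and 25.2 TPM (1.33). *Idi1*, *Sqle* and *Lss* were also past 2-fold, with log2 changes of 1.15 to 1.19, and *Mvd* lay just short of it at 0.99. *Cyp51* and *Ebp* were the sterol genes with lower unscaled levels in the *Tsc2*-/- library, at -0.36 and -0.71. After scaling to a median ratio of 1, *Pmvk* (-0.11), *Tm7sf2* (-0.30) and *Nsdhl* (-0.02) were lower too, and 13 of 18 sterol genes were higher.

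In the fatty acid branch *Scd2* had 148 TPM in the *Tsc2*+/+ MEFs and 408 TPM in the *Tsc2*-/- MEFs (log2 change 1.46), *Fads2* had 78.8 and 174 TPM (1.13) and *Fasn* 44.7 and 96.1 TPM (1.09). *Scd1*, the close relative of *Scd2*, had 88.7 and 125 TPM (0.49). *Lpin1* had 11.8 and 2.79 TPM, a log2 change of -1.76, and its level in the *Tsc2*+/+ MEFs was 4.23 times that in the *Tsc2*-/- MEFs (interval 3.70 to 4.87). This interval too is that of the unscaled ratio, and the log2 change after scaling was -2.03. *Lpin1* was therefore the member lowest relative to wild-type in the fibroblasts labelled *Tsc2*-/- and the one with the largest rise with rapamycin in the kidney lines. The *Tsc2*-/- library also carried the mesothelial markers given above, with *Upk3b* at 154 TPM against 0 and *Wt1* at 81.6 TPM against 0.0668. In bulk RNA a different share of a cell type and a different RNA level per cell cannot be told apart, and the part of these cells in the differences was not tested.

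Summed levels can hide a change of transcript, so the share of each gene's estimated counts was followed over its transcripts. Of the 36 members, 13 are listed with 1 transcript and 14 have at least 2 transcripts above 5% of the gene's counts in some library. *Lpin1* differed most. Its 2 listed transcripts differ in their start, ENSMUST00000111067 starting at chr12:16610966 and ENSMUST00000067124 at chr12:16589770 (GRCm38, minus strand). The transcript from the upstream start, the one whose promoter is printed above, made up 64.3% and 73.2% of *Lpin1* counts in the MEFs and 8.7% to 16.6% in the kidney libraries. The rise with rapamycin was thus mainly that of the transcript from the downstream start, which held 91.3% and 91.2% of counts in untreated and treated MKOC cells and 88.6% and 83.4% in TJ cells.

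For *Srebf1* the gene total did not change with rapamycin in a common direction, but the share of ENSMUST00000020846, whose start is the farthest upstream among its main transcripts, was higher with rapamycin in both lines, 46.0% and 57.7% in MKOC cells and 49.4% and 61.3% in TJ cells. The share of ENSMUST00000144942 was lower, 34.9% and 22.9% in MKOC cells and 27.9% and 20.03% in TJ cells. In the MEFs ENSMUST00000020846 held 60.9% and 63.1%. *Insig2* had a transcript, ENSMUST00000160968, with 2.2% and 0.6% of counts in the MEFs and 9.8% to 19.1% in the kidney libraries. *Tm7sf2*, a sterol reductase, had 37.6% and 29.98% of counts in ENSMUST00000025713 in the MEFs and 59.3% to 77.7% in the kidney libraries. Shares are estimates by Kallisto from reads that transcripts of a gene share, and they were not tested.

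**Figure D5:**
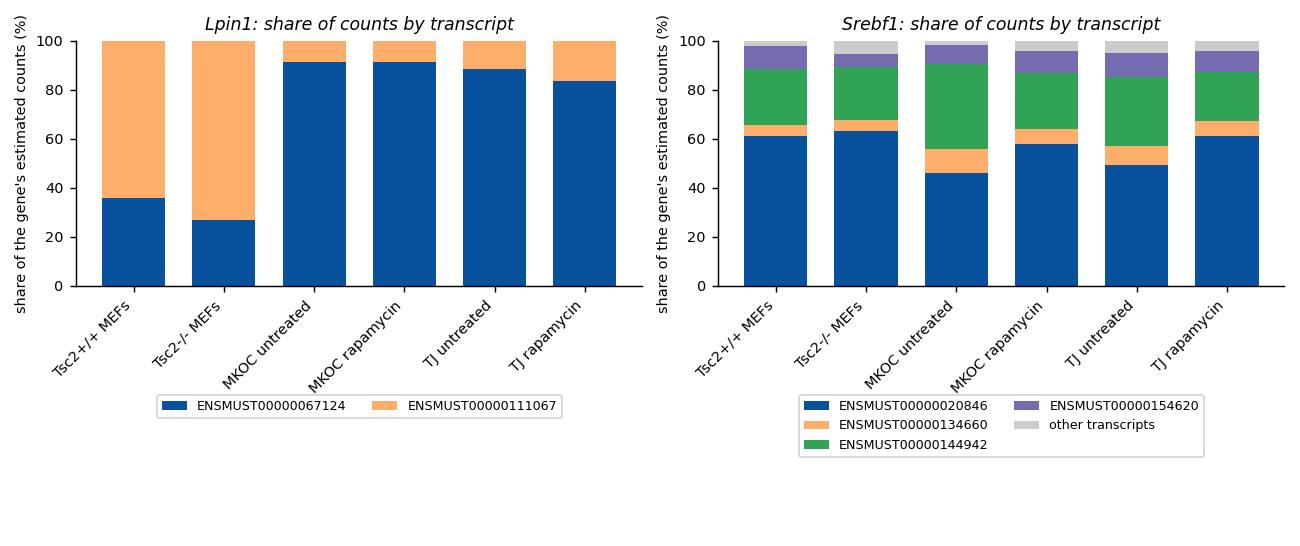
Share of the estimated counts of *Lpin1* (left) and *Srebf1* (right) that Kallisto gave to each transcript, in percent, for the 6 libraries; transcripts of at most 5% in all libraries are summed as other transcripts. ENSMUST00000111067 of *Lpin1* holds 64.3% and 73.2% in the MEFs and at most 16.6% in kidney cells, and ENSMUST00000020846 of *Srebf1* is higher with rapamycin in both lines.

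Genes around the pathway were read from the same rapamycin fit, in which 17.5% of all symbols were called higher and 17.4% lower. With 8 to 20 genes a list, the counts below are to be read against these shares. Of 10 genes that process SREBPs or turn over sterol sensors, *Mbtps1*, the site-1 protease that makes the first cut in SREBPs, rose and *Ufd1* fell. *Mbtps1* had 61.1 TPM untreated and 83.9 TPM with rapamycin in MKOC and 56.1 and 84.4 TPM in TJ cells (log2 change 0.52, SE 0.10, adjusted p = 0.00291). *Ufd1*, listed as *Ufd1l*, part of the complex that extracts proteins from the endoplasmic reticulum for degradation, had a log2 change of -0.45 (SE 0.11, adjusted p = 0.0103). The site-2 protease gene *Mbtps2* had -0.10 (SE 0.11, adjusted p = 0.493).

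Of 8 genes of the liver X receptors (LXR) and of cholesterol efflux or esterification, 1 rose and 2 fell. *Nr1h3*, which encodes LXR-alpha, had 8.47 and 12.5 TPM in MKOC and 7.27 and 8.80 TPM in TJ cells (log2 change 0.84, SE 0.19, adjusted p = 0.00650). This fitted change of counts is larger than the change of TPM in either line, so the size of the rise depends on the scale. *Soat1*, which esterifies cholesterol for storage, had 86.9 and 58.4 TPM in MKOC and 87.0 and 51.3 TPM in TJ cells (-0.81, SE 0.11, adjusted p = 0.000464). *Nceh1*, a cholesteryl ester hydrolase, also fell (-0.31, SE 0.10, adjusted p = 0.0384). Thus a gene of ester storage and one of ester breakdown fell together.

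Of 8 genes that draw farnesyl diphosphate into other products, 2 fell and none rose. *Pdss1*, which builds the tail of ubiquinone, had 51.9 and 29.1 TPM in MKOC and 42.01 and 20.5 TPM in TJ cells (log2 change -0.96, SE 0.12, adjusted p = 0.000263), and *Nus1*, a subunit of the dolichol synthase, had -0.42 (SE 0.10, adjusted p = 0.0100). Of 20 further genes of fatty acid and glycerolipid metabolism, 4 fell and none rose, and 4 of 20 is near the share of all symbols called lower. *Acsl1*, a long-chain acyl-CoA synthetase, had 21.9 and 8.97 TPM in MKOC and 20.2 and 7.72 TPM in TJ cells (-1.35, SE 0.11, adjusted p = 3.14e-05). *Dgat2*, which completes triglycerides, had 8.38 and 3.28 TPM and 14.0 and 7.51 TPM (-1.11, SE 0.17, adjusted p = 0.00102). *Slc25a1*, the mitochondrial citrate carrier that feeds fatty acid and sterol synthesis, had 179 and 119 TPM and 159 and 109 TPM (-0.53, SE 0.10, adjusted p = 0.00360). *Mid1ip1*, a partner of acetyl-CoA carboxylase, was the fourth. The median log2 change was -0.09 for the SREBP processing list, -0.08 for the LXR list, -0.12 for the isoprenoid list and 0.00 for the 20 lipid genes, beside 0.02 for all symbols.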

How the data were processed

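RNA-Seq libraries (poly(A)-selected, stranded TruSeq kit) were made from 6 mouse cell samples, 1 per condition. After trimming, the authors estimated abundances with Kallisto and deposited estimated counts and TPM of 88198 transcripts. A human reference is named in the study's methods, although the identifiers are Ensembl mouse ones. Whether Kallisto was told the strand is not given in the sources used here. A second table that the authors deposited holds a fold change (a ratio of the MEF libraries) per transcript, from which only gene symbols were taken. The symbol was missing for 1006 transcripts, which held 0.372% to 0.468% of counts and were left out. Values were summed over transcripts of a symbol, giving 30281 symbols, of which 25 are written as dates. Positions and promoters come from GENCODE and RefSeq on GRCm38.

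For the 4 kidney libraries, sums of estimated counts were rounded and passed through filterByExpr and TMM scaling to the quasi-likelihood test of edgeR, with line and treatment as terms. The line, named in the titles, pairs the libraries, and deviations from the treatment means had a correlation of 0.56 within lines over 12952 genes. For the MEFs, 1 was added to TPM, and intervals of ratios are exact binomial intervals at 95% that cover counting error only. On simulated counts for 12952 genes of the rapamycin comparison, 90 of 100 genes changed 2-fold and 100 of 100 changed 4-fold were recovered, with 7 false calls. The simulation changed 200 genes, set the same dispersion for every gene and gave both lines the same response. The real libraries differ from this, so the 7 false calls are not the error rate of the test on them.

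The members, gene lists and tests were chosen with earlier results of these data known, and the motifs, shared 31-base stretches, printed promoters and the minimum of 0.1 for opposite changes after values were seen. Of the motifs tried, 3 longer ones were not kept. Named with values in each library are the regulators and, in each branch, up to 6 members called for rapamycin and up to 4 past 2-fold in the MEFs or called between lines, by size of change, with up to 3 genes of each other list. *Hmgcs1*, *Fads1*, *Fdps* and other members named beyond these were added after their values were seen. Alternatives were RLE and upper-quartile scaling, DESeq2, limma on log2 of TPM with 1 added, no filter, no line or treatment term, each library left out, and, for the MEFs, other added constants, CPM, scaling to a median ratio of 1 and leaving out transcripts under 300 bases. Tools were Python 3.11.15, pandas 2.3.3, scipy 1.17.1, R 4.3.3, DESeq2 1.42.0, edgeR 4.0.16 and limma 3.58.1.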

Additional observations from a re-analysis of the deposited data

Results flagged for a closer look

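With rapamycin, 6 members changed in opposite directions in the 2 lines by more than 0.1 on the log2 scale, in CPM as well as in TPM. The same held for 839 of all 12952 symbols tested, or 6.48%. *Srebf1*, which encodes SREBP1, changed by -0.41 in MKOC cells and 0.36 in TJ cells on the log2 CPM scale, and it was the only one of the 6 that was lower in MKOC cells. *Idi1*, which isomerises isopentenyl diphosphate, changed by 0.49 in MKOC and -0.15 in TJ cells, and *Acat2* by 0.43 and -0.17. *Sqle*, squalene epoxidase, changed by 0.13 and -0.20, and *Lss*, which closes the first sterol ring system, by 0.18 and -0.15. *Acly*, which makes cytosolic acetyl-CoA from citrate, changed by 0.17 and -0.11. On the log2 scale of TPM with 1 added, the changes of *Srebf1* were smaller, -0.11 in MKOC and 0.19 in TJ cells, and those of *Lss* were larger, 0.54 and -0.56. Most of the larger change of *Lss* came from ENSMUST00000162282, a transcript of 425 bases annotated as a retained intron, which had 3.68 and 21.3 TPM in untreated and treated MKOC cells and 18.4 and 3.17 TPM in TJ cells, on 13.8 to 80.8 estimated counts. The main coding transcript ENSMUST00000048678 had 38.5 and 44.3 TPM in MKOC and 37.1 and 34.4 TPM in TJ cells. With 1 library per line and treatment, the differences between the lines were not tested.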

How the results depend on the processing

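With RLE scaling, DESeq2, limma or no replicate block for the line, 0 regulators rose with rapamycin in place of 1, with upper-quartile scaling 3 and with no filter 2. Sterol genes that rose numbered 5 with upper-quartile scaling or no filter and 1 with no replicate block, in place of 3. Fatty acid genes that fell numbered 2 with upper-quartile scaling or limma and 1 with no replicate block, in place of 4. Leaving out 1 library at a time, in fits with no term for the line, gave 0 to 0 regulators and 0 to 1 sterol genes higher, and 0 to 1 fatty acid genes higher and 0 to 0 lower. For TJ against MKOC, the 2 sterol calls became 0 with no treatment covariate or with any 1 library left out and 1 with limma, and 1 fatty acid gene was lower in TJ cells with no filter. *Mvd* and *Lpin1* were called under 8 of 10 alternatives, *Me1* under 6, *Fdft1* and *Scd1* under 5, *Mvk* under 4, and *Insig1*, *Acss2* and *Elovl6* under 2. Over all symbols, calls for rapamycin were 559 higher and 716 lower with no replicate block, 1391 and 1641 with DESeq2, and from 0 to 322 higher and 0 to 291 lower with 1 library left out.

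On the log2 scale of TPM with 1 added, the median fatty acid change was -0.12 without TJ and -0.35 without MKOC, the median sterol change 0.43 and 0.0262, and that of the regulators 0.18 and 0.19. On the log2 CPM scale the regulators had medians of 0.17 in MKOC and 0.36 in TJ cells. Uncalled genes that changed sign were *Srebf1* (0.00758 with upper-quartile scaling, 0.0376 with limma, -0.27 to 0.22 with 1 library left out), *Insig2* (0.0156 with upper-quartile scaling, -0.0613 to 0.0159), *Sqle* (0.000544 with upper-quartile scaling, -0.15 to 0.0697) and *Lss* (-0.0075 with limma, -0.18 to 0.21). With 1 library left out, *Acat2* ranged from -0.18 to 0.44, *Pmvk* from -0.15 to 0.27, *Idi1* from -0.13 to 0.46, *Cyp51* from -0.0164 to 0.43, *Tm7sf2* from -0.0668 to 0.14, *Dhcr7* from -0.15 to 0.39, *Stard4* from -0.0314 to 0.33 and *Acly* from -0.14 to 0.19. No called member changed sign. The cause of these differences was not tested.

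In the MEFs, members past 2-fold after scaling to a median ratio of 1, and likewise with CPM, were 1 regulator, 2 sterol genes higher and 1 lower, and 1 fatty acid gene higher and 1 lower. The medians were 0.40, 0.52 and 0.10 with scaling and 0.42, 0.52 and 0.11 with CPM for regulators, sterol and fatty acid genes. Without transcripts under 300 bases, 4 sterol genes and 1 fatty acid gene were higher, and the medians were 0.56, 0.67 and 0.26.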
